A study of Mus musculus with 2 samples.

Results

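MHC-II high myeloid cells without C1q are phagocytes of the Achilles tendon enthesis, the insertion of tendon into bone, that carry much antigen-presenting machinery but little of a complement protein that many resident macrophages make. In single-cell RNA counts, 1410 of 25430 usable cells met the selection, 714 of 14483 from tail suspension and 696 of 10947 from non-tail suspension. A usable cell had 300 or more genes detected and no more than 20% of its UMIs from mitochondria, a UMI being 1 tagged transcript molecule. It was selected when Cd74, H2-Aa, H2-Ab1 and H2-Eb1 together made up at least 1% of its UMIs and Lyz2 at least 0.1%, with C1qa, C1qb and C1qc under 0.1% and Col1a1, Col1a2 and Col3a1 under 0.5%. It had 0 UMIs of the B cell genes Cd79a and Ms4a1 and fewer than 2 UMIs of the dendritic cell genes Flt3, Zbtb46, Xcr1 and Ccr7 together. These are measured values, so the levels of these genes describe the selection and support nothing else.

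Both groups are SKG mice, which carry a mutation of the T cell kinase gene Zap70 and can develop autoimmune joint disease. In tail suspension a mouse hangs by its tail and its hindlimbs bear no weight, and the non-tail suspension group was not hung. Each group is 1 library, and the number of animals in it, their age and sex and whether disease was provoked are not given in the labels. With 1 library per group no difference could be tested, and a difference between groups cannot be told apart from one between libraries. All intervals are exact and at 95%, and reflect the counting of cells for shares and of UMIs for levels and ratios, nothing else. "With suspension" and "without" stand for the tail suspension and the non-tail suspension library.

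MHC class II molecules carry peptides from engulfed material to the cell surface for CD4+ T cells. Cd74, the invariant chain, guards the groove of a new class II molecule until H2-DM exchanges its remnant for peptide. Monocytes that enter inflamed tissue can take up this programme and come to resemble macrophages or dendritic cells, and interferon-gamma is a strong inducer of it. Clec4n encodes dectin-2, a C-type lectin that binds mannan of fungal walls and signals through Fcer1g, Syk and Card9. C1q is made by many mature tissue macrophages.

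The label was compared with genes that the selection did not use. Levels are CPM, UMIs of a gene per 1000000 UMIs summed over the cells of a library. Clec4n was at 590.3 CPM with suspension and 613 CPM without, a log2 ratio of -0.05 (-0.11 to 0.00). After every cell was thinned to 2000 UMIs, which left 687 and 684 selected cells, Clec4n was found in 55.7% (51.9 to 59.5) of them with suspension and 48.5% (44.7 to 52.4) without. Unthinned, the shares were 81.4% with suspension and 79.0% without. T cells, defined here by at least 2 UMIs of the CD3 genes, should lack Clec4n, and 2.49% of them had it with suspension and 10.1% without, after thinning. The T cells were shallower, with a median of 5186 UMIs with suspension and 5480 without, against 8957.5 and 12947 UMIs in the selected cells. Of these T cells 20.2% with suspension and 31.1% without also had at least 5% of UMIs from the neutrophil genes S100a8 and S100a9, so the set holds RNA of neutrophils too. The dectin-2 gene of the label was thus found far more often in the selected cells than in the T cells of either library. The neighbouring sets described below carried it too. Clec4n was at 417 CPM with suspension and 385 CPM without in C1q-carrying cells. It was at 529 CPM with suspension and 428 CPM without in cells with dendritic genes. In class II low monocytes it was at 263 CPM with suspension and 321 CPM without.

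Csf1r, the macrophage growth factor receptor, was at 433 CPM with suspension and 447 CPM without. Ccr2, the chemokine receptor of classical monocytes, was at 720.0 CPM with suspension and 514 CPM without. Ly6c2, a surface marker of the same monocytes, was at 201 CPM with suspension and 659 CPM without, and Plac8, another gene of these cells, at 478 CPM with suspension and 1424 CPM without. Fcgr1, the high-affinity antibody receptor CD64, was at 127 CPM with suspension and 373 CPM without. The mannose receptor Mrc1 had the opposite order, at 434 CPM with suspension and 75.2 CPM without, and so did the integrin gene Itgax (CD11c), at 91.9 CPM with suspension and 39.3 CPM without. The cells of both libraries carried monocyte and macrophage genes beside the class II genes. Ly6c2, Plac8 and Fcgr1 were higher without suspension, and Ccr2, Mrc1 and Itgax with it. The markers of a class thus did not share 1 direction. The 16 monocyte markers summed to 6560 CPM with suspension and 6122 CPM without. Much of this sum with suspension is Fn1, which is also counted as a fibroblast marker. With suspension Fn1 was at 4885 CPM in selected cells where Ccl17 was found after thinning and 3384 CPM where it was not. After thinning Fn1 was found in 87.8% of the selected cells with suspension and 66.4% without. The sum thus says little of the other monocyte markers. The 20 macrophage markers, which include the C1q genes of the selection, summed to 6748 CPM with suspension and 9311 CPM without. A lower summed level can stand for fewer cells with a transcript or for less of it per cell.

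**Figure D1:**
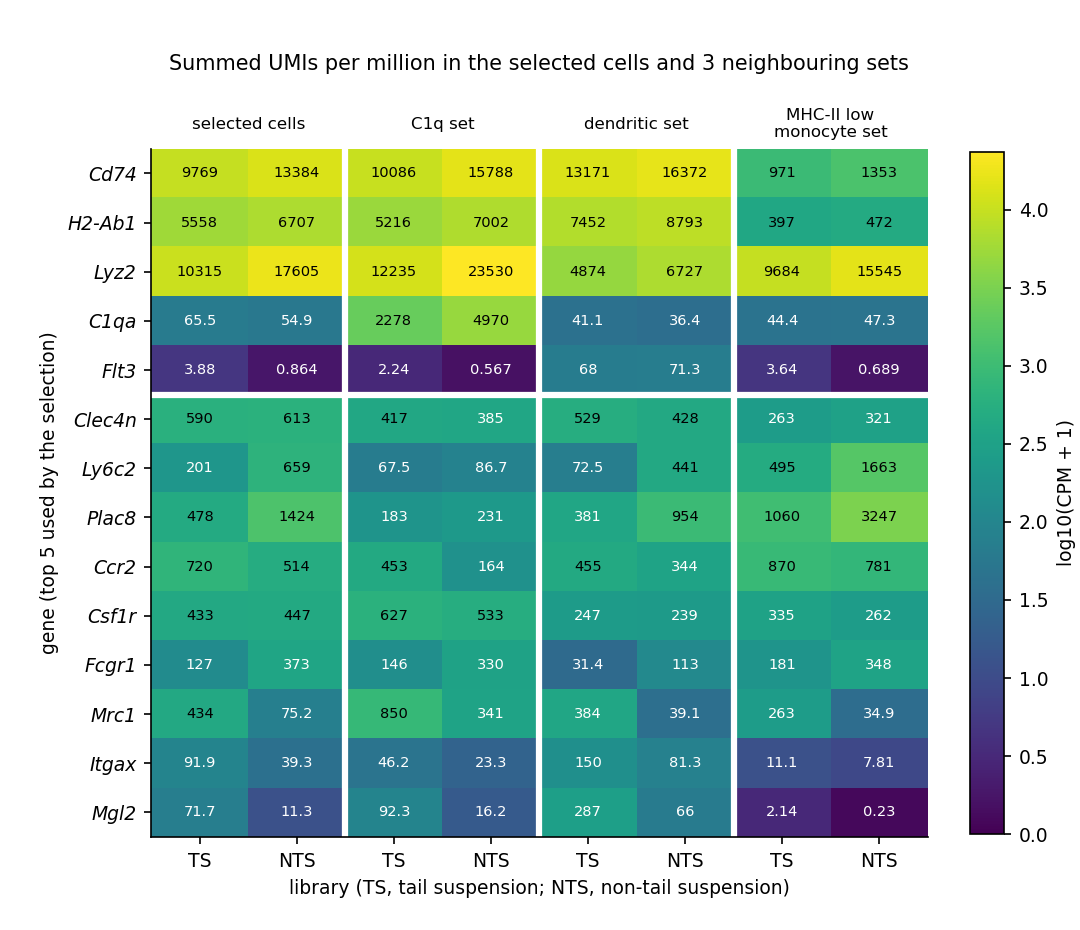
Level of marker genes (rows; CPM printed in each field, coloured on a log10(CPM + 1) scale) in the selected cells and 3 neighbouring sets (columns), with tail suspension (TS) left of non-tail suspension (NTS) in each. The upper 5 genes took part in the selection. Ly6c2, Plac8 and Fcgr1 are lower, and Ccr2, Mrc1 and Itgax higher, with suspension in the selected cells.

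The libraries held 15545 barcodes and 166606774 UMIs with suspension and 11430 barcodes and 121868851 UMIs without, and the selected cells summed to 7221903 and 9259137 UMIs. The libraries had 47 barcode sequences in common, 0 of them among the selected cells. Over the 11220 genes with at least 20 UMIs in the selected cells the median log2 ratio was 0.16. Crip1, a small zinc-binding protein gene picked after its values were seen, differed alike in unrelated cells, at 16188 CPM with suspension and 3034 CPM without in the selected cells and 7956 CPM with suspension and 2209 CPM without in the T cells. Markers of other cells were found, and how much of their RNA came from such cells was not tested. The 22 fibroblast and tendon cell markers summed to 6551 CPM with suspension and 2420 CPM without. They include Fn1, which is also among the monocyte markers above and makes up much of the sum with suspension. The 24 neutrophil markers summed to 2751 CPM with suspension and 4250 CPM without. The 9 mast cell and basophil markers summed to 41.4 CPM with suspension and 1.94 CPM without. The 20 T and natural killer cell markers summed to 174 CPM with suspension and 117 CPM without. Of the plasmacytoid dendritic cell markers Siglech, Klk1, Ly6d and Pacsin1 were at 0 with suspension, and of the B cell markers Cd79a and Ms4a1, which the selection used, were at 0 in both libraries.

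The selected cells were 4.93% (4.58 to 5.30) of usable cells with suspension and 6.36% (5.91 to 6.83) without. Among all cells that passed the class II, Lyz2, collagen and B cell limits they were 52.8% (50.1 to 55.5) of 1351 with suspension and 38.3% (36.1 to 40.6) of 1815 without. Cells in narrow windows at the limits were few, but larger changes of a limit altered the set. With no C1q UMI allowed, 389 cells with suspension and 329 without remained. With a class II limit of 2%, 462 with suspension and 514 without remained. Between 0.9% and 1% of class II UMIs 48 cells with suspension and 27 without stayed outside, and 29 and 21 lay inside between 1% and 1.1%. For C1q, 8 cells with suspension and 11 without lay inside between 0.09% and 0.1%, and 15 and 8 stayed outside up to 0.11%. With 1 UMI of the dendritic genes 56 cells with suspension and 43 without lay inside, and 26 and 15 with 2 UMIs stayed outside. This last limit is a number of UMIs and was not scaled to the depth of a cell.

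Of the 11220 measured genes, 1268 (11.3%) were at least 2-fold higher with suspension in these cells and 463 (4.13%) at least 2-fold lower. Ratios scaled by the median over genes gave 993 higher and 637 lower. With cells thinned to 2000 UMIs 666 of 7940 measured genes were at least 2-fold higher, and with a minimum of 100 UMIs 492 of 8264. Among the 12 genes named as highest by rule, Ccl17, a chemokine that draws cells bearing Ccr4, had the largest ratio. It was at 989 CPM (967 to 1013) with suspension and 7.56 CPM (5.89 to 9.55) without, a log2 ratio of 7.03 (6.69 to 7.39). After thinning it was found in 16.3% (13.6 to 19.3) of the selected cells with suspension and in 0.877% (0.323 to 1.90) without, and unthinned in 22.4% with suspension and 1.72% without. In the T cells it was found in 1.10% with suspension and 0.125% without, after thinning. The 69 cells with most Ccl17 held 93.3% of its 955 thinned UMIs with suspension, so a minority of the cells carried most of the transcript.

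The promoter of Ccl17 is shown because the gene has the largest ratio and is known to respond to interleukin-4 through STAT6. The window is chr8:94810203-94810502 on the plus strand (RefSeq, GRCm38.p6), from 250 bases before the start site to 50 after it, and capitals mark a match of TTCNNNNGAA, the spaced palindrome to which STAT6 binds.
Ccl17: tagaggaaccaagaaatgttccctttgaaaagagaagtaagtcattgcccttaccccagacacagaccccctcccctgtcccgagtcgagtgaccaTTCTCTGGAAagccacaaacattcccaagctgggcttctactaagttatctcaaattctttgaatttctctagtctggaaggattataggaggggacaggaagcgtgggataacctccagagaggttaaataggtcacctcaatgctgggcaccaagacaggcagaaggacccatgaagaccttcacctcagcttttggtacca
On either strand, 7.02% of 27025 promoters hold this motif, as does 1 of the 9 named higher genes with a promoter in the table. The window was picked after its match was seen, and a match shows letters and no binding.

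Further named genes are known from dendritic cells and alternatively activated macrophages. Mgl2 (CD301b), a galactose-binding lectin of type 2 dendritic cells and some macrophages, was at 71.7 CPM with suspension and 11.3 CPM without. Epcam, an adhesion molecule of epithelium that Langerhans cells also carry, was at 72.4 CPM with suspension and 4.86 CPM without. Mfge8, a bridge between dying cells and phagocytes, was at 107 CPM with suspension and 7.13 CPM without. Ccl24, an eosinophil chemokine, was at 80.2 CPM with suspension and 11.1 CPM without, and Rnase2a, a gene of the eosinophil ribonuclease family, at 50.3 CPM with suspension and 0.432 CPM without. Cd163, the haemoglobin scavenger receptor of resident macrophages, was at 53.03 CPM with suspension and 0.432 CPM without, from 383 UMIs with suspension and 4 UMIs without. Its log2 ratio of 6.94 was 3.84 with cells thinned to 1000 UMIs and 4.55 within cluster 1. The T cells, which should lack Cd163, had 32.1 CPM with suspension and 4.25 CPM without, and those with under 1% of UMIs from S100a8 and S100a9 had 42.4 CPM with suspension and 0.28 CPM without, so the gap was found in them too and the part of free RNA in it was not tested. Rnase2a, with a log2 ratio of 6.86, had 4.61 with cells thinned to 1000 UMIs, and Mfge8, with 3.91, had 2.34. All 6 were several-fold higher with suspension. In the cells with dendritic genes Mgl2 was at 287 CPM with suspension and 65.99 CPM without, Epcam at 319 CPM with suspension and 56.5 CPM without and Mfge8 at 564 CPM with suspension and 20.1 CPM without.

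The other 5 named higher genes are secreted products of connective tissue cells, and other cells had more of them. Apod, a lipid carrier, was at 159 CPM with suspension and 6.804 CPM without in the selected cells, at 456 CPM with suspension and 17.2 CPM without in the T cells and at 2162 CPM with suspension and 856 CPM without in collagen-rich cells. Serpina3n, a protease inhibitor with near copies in the genome, was at 67.7 CPM with suspension and 5.62 CPM without, and in the T cells at 143 CPM with suspension and 8.15 CPM without. Igfbp5, a binding protein of insulin-like growth factors, was at 73.8 CPM with suspension and 8.42 CPM without, and in the T cells at 164 CPM with suspension and 13.1 CPM without. Serping1, the C1 inhibitor, was at 103 CPM with suspension and 15.1 CPM without, and in the T cells at 205 CPM with suspension and 29.7 CPM without. Ccdc80, a matrix protein gene, was at 84.05 CPM with suspension and 10.8 CPM without, and in the collagen-rich cells at 867 CPM with suspension and 650.5 CPM without. With suspension 6 of the 12 named higher genes, Mfge8 among them, stood above the selected cells' level in the collagen-rich cells, and 4 in the T cells. Collagen-rich cells had at least 2% of UMIs from the collagen genes. The part of RNA from such cells in these ratios was not tested.

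**Figure D2:**
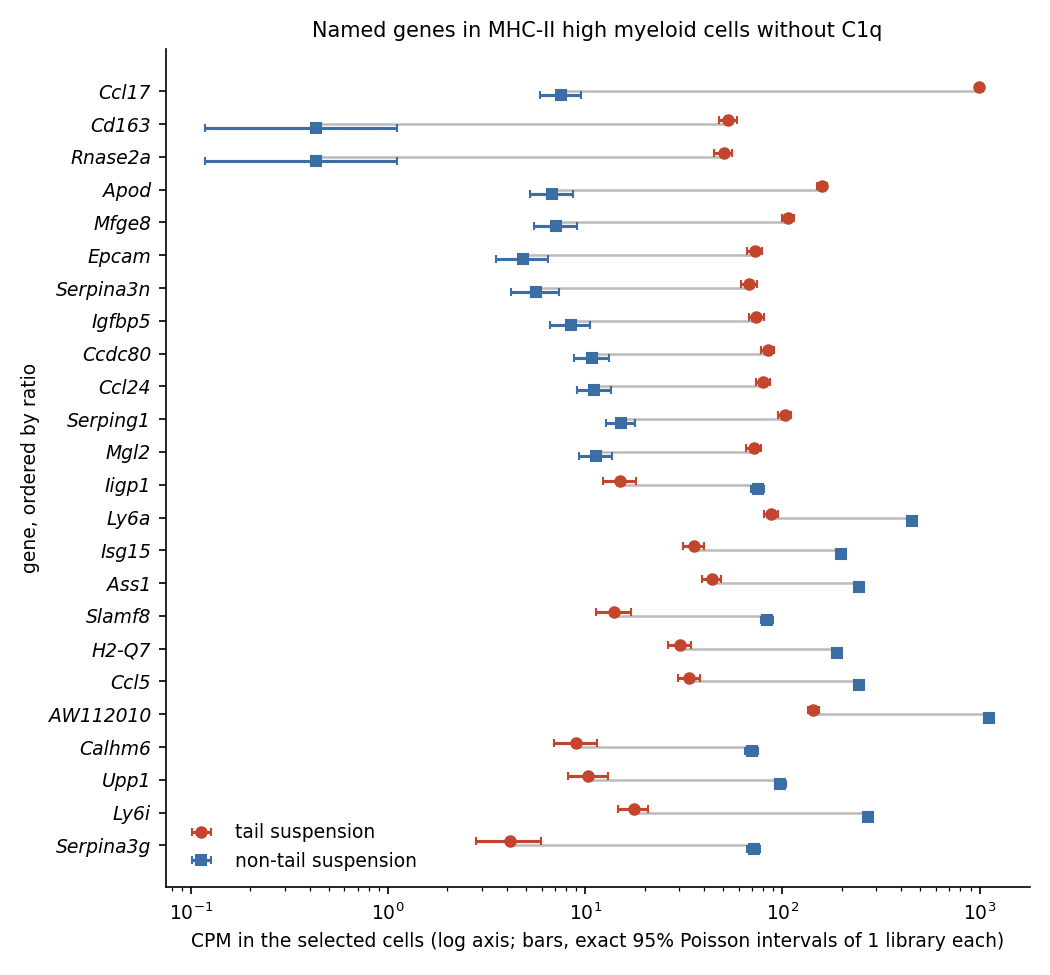
Level of the 24 named genes (CPM, log axis) in the selected cells of tail suspension (circles) and non-tail suspension (squares), with exact 95% Poisson intervals of 1 library each. Ccl17 has the widest gap, at 989 against 7.56 CPM.

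Cells with and without Ccl17 differed within the tail suspension library. After thinning, 112 cells had a Ccl17 UMI and 575 had none, with median depths of 14409 and 8663 UMIs. As Ccl17 chose the groups and their depths differ, their levels are a description. Epcam was at 256 CPM in cells with Ccl17 and 17.7 CPM in cells without, Mgl2 at 226 CPM in cells with Ccl17 and 26.5 CPM in cells without, Mfge8 at 352 CPM in cells with Ccl17 and 35.3 CPM in cells without and Itgax at 255 CPM in cells with Ccl17 and 44.3 CPM in cells without. Clec4n was at 936 CPM in cells with Ccl17 and 491 CPM in cells without. In the opposite direction, Plac8 was at 25.1 CPM in cells with Ccl17 and 614 CPM in cells without and Ly6c2 at 17.7 CPM in cells with Ccl17 and 255 CPM in cells without. Apoe, a lipid carrier abundant in macrophages, was at 469 CPM in cells with Ccl17 and 5888 CPM in cells without, and Fcgr1 at 20.8 CPM in cells with Ccl17 and 159 CPM in cells without. Cd163 was at 10.4 CPM in cells with Ccl17 and 64.5 CPM in cells without and Ccl24 at 28.2 CPM in cells with Ccl17 and 95.3 CPM in cells without. Cells with Ccl17 thus had more Epcam, Mgl2 and Mfge8, and cells without it more Plac8, Apoe, Cd163 and Ccl24, although all 5 of Ccl17, Epcam, Mgl2, Cd163 and Ccl24 were higher in this library.

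**Figure D3:**
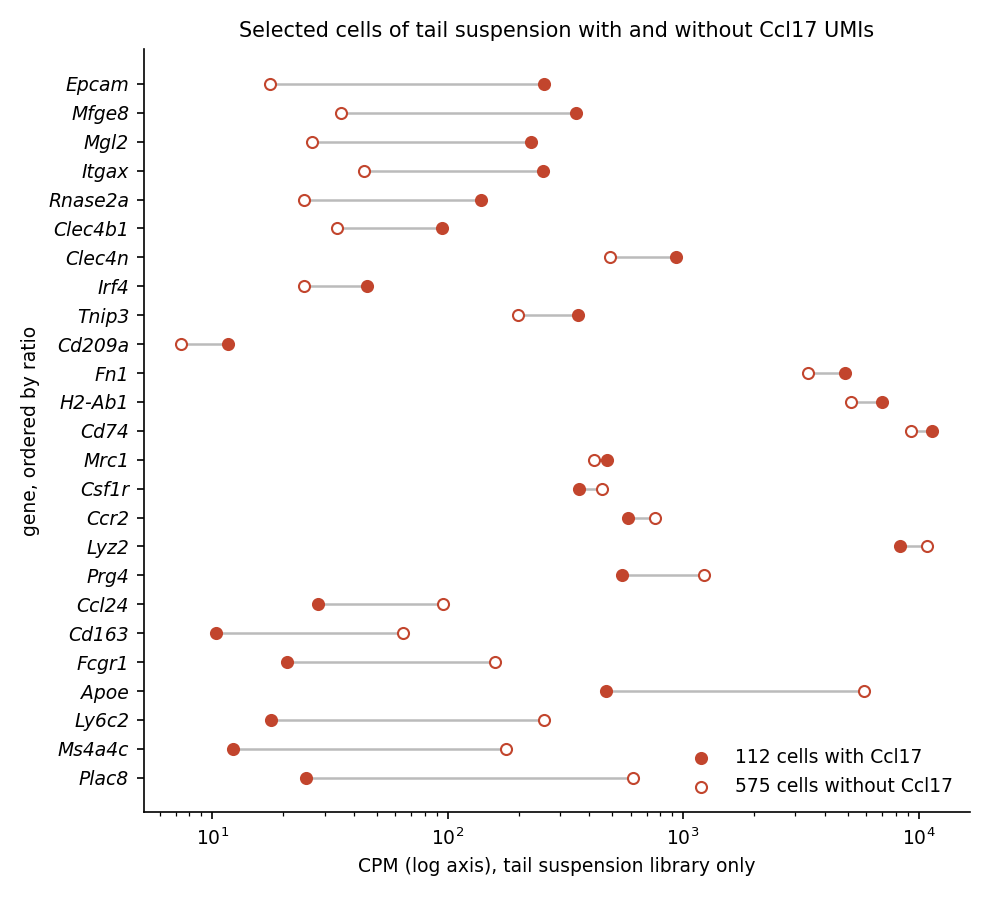
Level of genes (CPM, log axis) in the 112 selected cells of tail suspension with a Ccl17 UMI after thinning (filled) and the 575 without (open). Epcam, Mfge8, Mgl2 and Itgax are higher in cells with Ccl17, and Plac8, Ms4a4c, Ly6c2 and Apoe lower.

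Interferon-inducible genes were the list with the lowest median. Of its 40 measured genes 39 were lower with suspension and 28 at least 2-fold lower, where 38.4% of all measured genes were lower by any amount and 4.13% by 2-fold. The median log2 ratio was -1.63, against 0.16 over all measured genes, and -1.79 relative to the median over genes. Isg15, a ubiquitin-like protein, was at 35.6 CPM (31.4 to 40.2) with suspension and 198 CPM (189 to 207) without, a log2 ratio of -2.48 (-2.67 to -2.29). After thinning it was found in 8.30% of the selected cells with suspension and 26.2% without, and unthinned in 21.1% with suspension and 63.6% without. The T cells, which can make Isg15 themselves, had it in 5.58% with suspension and 23.4% without after thinning, so the shares of the selected cells lie near theirs. Gbp2, a guanylate-binding protein that attacks vacuoles of pathogens, was at 43.5 CPM with suspension and 174 CPM without. Ifit1, which senses foreign RNA, was at 2.91 CPM with suspension and 18.5 CPM without. Cxcl9, a chemokine for Cxcr3-bearing T cells, was at 33.2 CPM with suspension and 158 CPM without, and Cxcl10, another, at 58.6 CPM with suspension and 167 CPM without. Irf9, an interferon regulatory factor, was the 1 higher gene of the list, at 37.2 CPM with suspension and 32.7 CPM without.

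Several of the 12 named lower genes are also known interferon targets. Iigp1, an immunity-related GTPase, was at 14.95 CPM with suspension and 74.8 CPM without. AW112010, a transcript of activated lymphocytes and phagocytes, was at 143 CPM with suspension and 1114 CPM without. Ccl5, a T cell chemokine, was at 33.5 CPM with suspension and 246 CPM without, a log2 ratio of -2.87 (-3.07 to -2.68). Calhm6, a channel gene of activated macrophages, was at 9.0004 CPM with suspension and 69.98 CPM without, and Slamf8, a SLAM family receptor of phagocytes, at 13.99 CPM with suspension and 83.3 CPM without. Ly6i, a small anchored surface protein, was at 17.6 CPM with suspension and 272 CPM without, and its relative Ly6a at 87.7 CPM with suspension and 456 CPM without. Serpina3g, a protease inhibitor, was at 4.15 CPM with suspension and 71.4 CPM without. Upp1, a uridine phosphorylase, was at 10.4 CPM with suspension and 97.6 CPM without, and Ass1, which serves arginine synthesis, at 43.8 CPM with suspension and 243 CPM without. Reads of near copies can be split between genes, so Ly6i, Ly6a, Serpina3g, Serpina3n and H2-Q7 are uncertain as single genes. Without suspension 5 of the 12 named lower genes stood above the selected cells' level in the T cells and 2 in the collagen-rich cells.

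The MHC class I list holds class I heavy chains, the peptide transporter and the immunoproteasome. Of 23 measured genes 22 were lower with suspension and 17 at least 2-fold lower. Over all measured genes those shares were 38.4% and 4.13%. The median log2 ratio of the class I list was -1.39, or -1.55 relative to the median over genes. H2-D1, a classical class I heavy chain, was at 2840 CPM with suspension and 7428 CPM without, and its partner B2m at 1949 CPM with suspension and 4042 CPM without. Tap1, a subunit of the peptide transporter, was at 50.4 CPM with suspension and 189.8 CPM without. Psmb8, a subunit of the immunoproteasome, was at 245 CPM with suspension and 761 CPM without. H2-Q7, a nonclassical heavy chain, was at 30.2 CPM with suspension and 188 CPM without. Of the general chaperones of the endoplasmic reticulum, Canx was the 1 higher gene of the list, at 266 CPM with suspension and 234 CPM without, while Calr was at 552 CPM with suspension and 765 CPM without and Pdia3 at 269 CPM with suspension and 409.8 CPM without.

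Promoters of 3 genes from these lists are shown because they hold the interferon-stimulated response element, here GAAANNGAAA on either strand, in capitals; they were picked after the matches were seen. The windows run from 250 bases before to 50 after the start site (RefSeq, GRCm38.p6). Isg15 lies at chr4:156200769-156201068 on the minus strand with 3 overlapping matches, and Gbp2 at chr3:142620413-142620712 on the plus strand with 1. H2-T23, a class I gene at 123 CPM with suspension and 438 CPM without, lies at chr17:36032652-36032951 on the minus strand with 1.
Isg15: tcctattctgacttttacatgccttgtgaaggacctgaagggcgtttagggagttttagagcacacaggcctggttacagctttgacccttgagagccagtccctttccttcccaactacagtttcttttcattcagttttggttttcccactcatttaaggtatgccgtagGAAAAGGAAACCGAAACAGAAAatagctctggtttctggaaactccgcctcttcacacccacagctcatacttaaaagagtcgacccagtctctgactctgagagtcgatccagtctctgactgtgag
Gbp2: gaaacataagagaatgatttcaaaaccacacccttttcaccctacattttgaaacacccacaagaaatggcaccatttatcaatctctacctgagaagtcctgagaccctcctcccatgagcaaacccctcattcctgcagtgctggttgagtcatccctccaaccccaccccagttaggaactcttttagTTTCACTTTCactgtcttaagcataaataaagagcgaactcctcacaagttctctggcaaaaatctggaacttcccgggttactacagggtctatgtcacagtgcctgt
H2-T23: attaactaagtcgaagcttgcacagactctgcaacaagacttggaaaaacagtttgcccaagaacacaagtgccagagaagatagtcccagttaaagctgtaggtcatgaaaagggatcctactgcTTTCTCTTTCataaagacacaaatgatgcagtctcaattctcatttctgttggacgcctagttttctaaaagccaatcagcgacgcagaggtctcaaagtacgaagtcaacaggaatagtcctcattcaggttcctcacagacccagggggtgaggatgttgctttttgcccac
Of the 29 measured interferon-inducible genes with a promoter in the table, 18 (62.1%) hold this motif, as do 5 of 20 class I genes and 3.49% of all 27025 promoters. ATTGG, the Y box of class I and class II promoters, stood in 15 of the 20 class I genes and in 37.9% of all promoters. The interferon list was drawn from known targets, so its share says nothing of suspension.

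Both lists had medians below 0 in other cells of the same libraries. The interferon list had a median log2 ratio of -1.29 in the C1q-carrying cells, -1.47 over 35 measured genes in the cells with dendritic genes, -1.55 in class II low monocytes and -1.28 in the T cells. The class I list had -1.07 in the C1q-carrying cells, -1.34 in the cells with dendritic genes, -1.40 in class II low monocytes and -1.18 in the T cells. In T cells with under 1% of UMIs from S100a8 and S100a9, a set added after the data were seen, the interferon list had -0.82 and the class I list -1.07. Whether the selected cells differ from these sets was not tested.

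Class II presentation beyond the genes of the selection was less uniform. Of 18 measured genes 15 were lower with suspension, 3 of them at least 2-fold. Over all measured genes those shares were 38.4% and 4.13%. The median of the class II list was -0.44 in the selected cells and -0.56 in the T cells. It was -0.29 in T cells with under 1% of UMIs from S100a8 and S100a9. Ciita, the class II transactivator, was at 48.05 CPM with suspension and 51.4 CPM without, a log2 ratio of -0.10 (-0.30 to 0.11). H2-DMa, which edits the peptide, was at 792 CPM with suspension and 750.3 CPM without, and its partner H2-DMb1 at 759 CPM with suspension and 895 CPM without. H2-DMb2, a near copy of H2-DMb1, was at 68.8 CPM with suspension and 32.1 CPM without. Ctss, the protease that trims the invariant chain, was at 2306 CPM with suspension and 3447 CPM without, and the lysosomal protease Ctsd at 445 CPM with suspension and 1232 CPM without. The proteases were lower with suspension, while Ciita and H2-DMa differed little.

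Of 25 measured C-type lectin and Toll-like genes 20 were lower with suspension and 2 at least 2-fold lower. Over all measured genes those shares were 38.4% and 4.13%. The lectin and Toll-like genes had a median of -0.29. In the T cells, which should lack most of them, the median was -0.73, and -0.03 in those with under 1% of UMIs from S100a8 and S100a9. Clec4e (mincle), a lectin that shares the Fcer1g chain with dectin-2, was at 704 CPM with suspension and 803 CPM without, and Fcer1g at 1885 CPM with suspension and 2668 CPM without. Syk, the kinase of this route, was at 226 CPM with suspension and 210.2 CPM without, and its adaptor Card9 at 14.1 CPM with suspension and 18.04 CPM without. Clec12a, an inhibitory lectin, was at 107 CPM with suspension and 269 CPM without. Cd14, the co-receptor of endotoxin, was at 1563 CPM with suspension and 2924 CPM without. The dectin-2 gene and Syk thus had nearly equal levels in the libraries, and Clec12a and Cd14 were lower with suspension.

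Chemokines were split. Of 19 measured genes 11 were higher with suspension, where 61.6% of all measured genes were higher, and 8 lower. Past 2-fold were 6 and 2 of them, where 11.3% and 4.13% of all measured genes were. The median of the chemokines was 0.52, against 0.23 in the T cells. It was 0.58 in T cells with under 1% of UMIs from S100a8 and S100a9. Ccl2, a monocyte attractant, was at 781 CPM with suspension and 256 CPM without, and in the T cells at 370.1 CPM with suspension and 77.96 CPM without. Ccl7, its relative, was at 305 CPM with suspension and 116 CPM without, and Ccl6, a myeloid chemokine, at 1805 CPM with suspension and 517 CPM without. Cxcl2, a neutrophil attractant, was at 7546 CPM with suspension and 8759 CPM without. Ccl4, a chemokine for T cells and monocytes, was at 169 CPM with suspension and 339.7 CPM without. The monocyte attractants Ccl2 and Ccl7 were higher and Ccl4 and Ccl5 lower with suspension.

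Of 24 measured cytokines and antagonists 20 were lower with suspension, 6 of them at least 2-fold. Over all measured genes those shares were 38.4% and 4.13%. The median of these cytokines and antagonists was -0.50. Within cluster 1 alone, the 1 cluster of these cells with at least 30 cells of each library, that median was 0.20. Cluster 1 also carried the fibroblast genes Prg4 and Dcn and had the lowest median depth of the clusters, 6799 UMIs. In the T cells, which mostly do not make the genes of the cytokine list, its median was -0.86. In T cells with under 1% of UMIs from S100a8 and S100a9 it was -0.30. The median of the selected cells lies between these values. Il1b was at 2473 CPM with suspension and 4312 CPM without, and its antagonist Il1rn at 269 CPM with suspension and 499 CPM without. Tnf was at 217 CPM with suspension and 311 CPM without. Il23a, a subunit of a cytokine that can drive enthesitis in mice, was at 2.63 CPM with suspension and 8.64 CPM without, from 19 UMIs with suspension and 80 UMIs without. Il18bp, which binds interleukin-18 and is itself induced by interferon, was at 14.7 CPM with suspension and 64.4 CPM without, and Il27 at 1.11 CPM with suspension and 5.4001 CPM without. Il6 and the growth factor Igf1 were the exceptions past 2-fold, with Il6 at 74.8 CPM with suspension and 36.1 CPM without and Igf1 at 19.7 CPM with suspension and 7.88 CPM without. Il6 was at 80.3 CPM with suspension and 12.4 CPM without in the T cells.

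Of 23 glycolysis and hypoxia genes 19 were lower with suspension, 7 of them at least 2-fold. Their median was -0.89, and in the T cells it was -0.75. Beside the counts in this paragraph, 38.4% of all measured genes were lower and 4.13% at least 2-fold lower. Gapdh, a glycolytic enzyme, was at 1606 CPM with suspension and 2810 CPM without, and Pkm, which makes pyruvate, at 680.2 CPM with suspension and 1314 CPM without. Hk3, a hexokinase of myeloid cells, was at 14.1 CPM with suspension and 63.6 CPM without, whereas Hk2, another, was at 246 CPM with suspension and 101 CPM without. Of 19 arginine, itaconate and eicosanoid enzymes 13 were lower, 5 of them at least 2-fold. The median was -0.46 (0.0624 within cluster 1), against -0.32 in the T cells. It was 0.31 in T cells with under 1% of UMIs from S100a8 and S100a9. Nos2, which makes nitric oxide, was at 6.23 CPM with suspension and 43.7 CPM without. Acod1, which makes itaconate, was at 54.4 CPM with suspension and 235 CPM without, and Arg1, which splits arginine, at 148 CPM with suspension and 406 CPM without. Alox5, the first enzyme of leukotriene synthesis, was at 36.6 CPM with suspension and 7.13 CPM without. The enzymes of nitric oxide and itaconate were thus lower and Alox5 higher with suspension. In lipid and lysosome handling 18 of 22 genes were lower, 4 of them at least 2-fold, with a median of -0.44, against 0.05 in the T cells. Apoe was at 4658 CPM with suspension and 7064 CPM without, Gpnmb, a lysosomal membrane protein, at 6.65 CPM with suspension and 21.4 CPM without, and the lipase Lpl at 90.004 CPM with suspension and 30.8 CPM without.

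Of 14 measured glucocorticoid-responsive genes 10 were higher with suspension, 4 of them at least 2-fold, where 61.6% of all measured genes were higher and 11.3% at least 2-fold, so the count of higher genes is near the share over all genes. The median was 0.58, and 1.25 over 13 genes within cluster 1. It was 0.94 in the C1q-carrying cells and 0.56 in the T cells. T cells with under 1% of UMIs from S100a8 and S100a9 had 0.67. Mt1, a metallothionein, was at 1823 CPM with suspension and 650.2 CPM without, and Mt2 at 406 CPM with suspension and 76.1 CPM without, with Mt2 at 675 CPM with suspension and 65.6 CPM without in the T cells. Fkbp5, a direct target of the receptor, was at 64.5 CPM with suspension and 34.02 CPM without, but Per1, another, at 34.8 CPM with suspension and 65.4 CPM without. The direct targets thus did not share 1 direction.

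Of all measured genes 61.6% were higher with suspension and 11.3% at least 2-fold. Of 20 cell cycle genes 18 were higher, 7 of them at least 2-fold. The median was 0.69, but -0.0154 over the 20 genes within cluster 1, 1.53 with no C1q UMI allowed, 0.10 in cells with less Ly6c2 and Plac8, and -0.16 over the 4 genes still measured with cells thinned to 1000 UMIs. In the C1q-carrying cells the median was 0.41. It was -0.71 in the cells with dendritic genes, with 18 of 20 genes lower, and -1.58 in class II low monocytes, with all 20 lower. In the T cells it was -0.14. The direction of this list thus changed with these settings and between sets of cells. Mki67, a marker of cycling cells, was at 51.1 CPM with suspension and 42.4 CPM without, and the cyclin Ccnb1 at 7.2003 CPM with suspension and 0.864 CPM without. Of 22 mechanosensing and actin genes 15 were higher, which is near the 61.6% over all measured genes. At least 2-fold higher were 4 of them, against 11.3% of all measured genes. The median of this list was 0.49 in the selected cells and 0.15 in the T cells. Vcl (vinculin), which anchors actin at adhesions, was at 51.1 CPM with suspension and 22.03 CPM without. Trpv4, a stretch-sensitive channel, was at 6.37 CPM with suspension and 2.92 CPM without. Actb, the main actin, was at 9210 CPM with suspension and 9586 CPM without. Vcl and Trpv4 were higher with suspension and Actb was nearly level.

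The remaining lists had medians nearer to 0. In the T cells their medians were -0.37 for costimulation and checkpoint ligands, -0.52 for chemokine and adhesion receptors, -0.78 for osteoclastogenesis and -0.31 for immediate-early genes. In T cells with under 1% of UMIs from S100a8 and S100a9 they were -0.20, -0.42, -0.20 and -0.14, in this order. Beside the counts below, 38.4% of all measured genes were lower, 4.13% at least 2-fold lower and 11.3% at least 2-fold higher. Costimulation and checkpoint ligands had -0.13, with 10 of 16 lower and 1 past 2-fold each way. Cd274 (PD-L1), which restrains T cells, was at 99.7 CPM with suspension and 198 CPM without, Cd40, which receives T cell help, at 31.8 CPM with suspension and 72.1 CPM without, and Icosl, a costimulator, at 7.48 CPM with suspension and 2.70004 CPM without. Chemokine and adhesion receptors had -0.14 (0.13 within cluster 1), with 14 of 23 lower and 6 of them past 2-fold. Cd44, the hyaluronan receptor, was at 931 CPM with suspension and 684 CPM without, and Ccrl2, which presents chemerin, at 449.6 CPM with suspension and 1094 CPM without. Osteoclastogenesis had -0.26, with 11 of 12 lower and 1 of them past 2-fold, the phosphatase Acp5 at 14.5 CPM with suspension and 79.6 CPM without. Dcstamp, a fusion receptor, was higher at 14.8 CPM with suspension and 3.89 CPM without. Immediate-early genes, which tissue digestion can also induce, had -0.16 (0.19 within cluster 1), with 15 of 24 lower and 3 of them past 2-fold. Nfkbia, the brake of NF-kB, was at 1707 CPM with suspension and 3286 CPM without, and Socs3, which dampens cytokine signals, at 263 CPM with suspension and 564 CPM without.

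**Figure D4:**
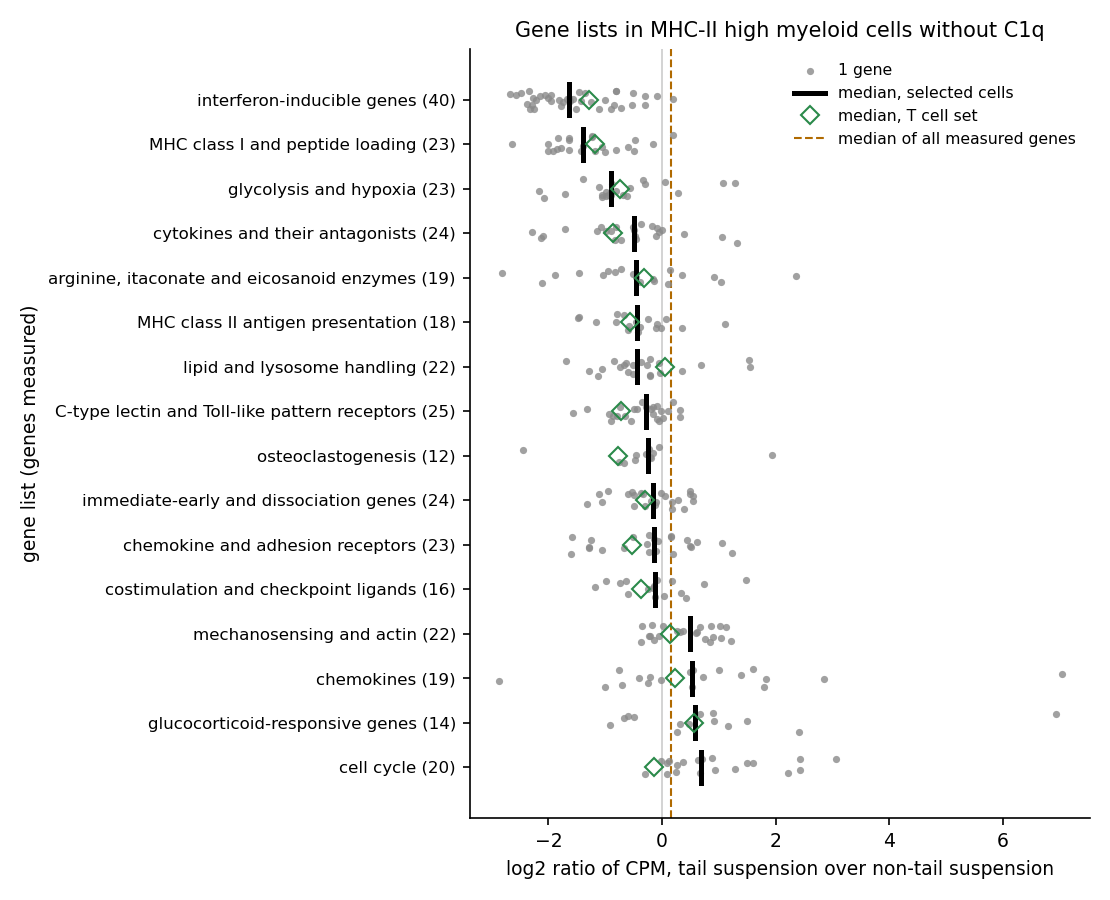
Log2 ratio of CPM, tail suspension over non-tail suspension, for the measured genes of 16 lists (points), with each list's median in the selected cells (black bars) and in the T cells (diamonds). The interferon list (-1.63) and the class I list (-1.39) lie lowest, against 0.16 over all measured genes.

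The selected cells were set beside 3 neighbouring sets, with the 5 largest ratios that held in both libraries named for each. The C1q-carrying cells, 568 with suspension and 1006 without, passed the same limits except that of C1q. Over them, 122 (0.967%) of 12617 genes were at least 2-fold higher in both libraries and 240 (1.9%) lower. Plac8 was at 478 CPM with suspension and 1424 CPM without in the selected cells and at 183 CPM with suspension and 231 CPM without in the C1q-carrying cells. Ly6c2 was at 201 CPM with suspension and 659 CPM without in the selected cells and at 67.5 CPM with suspension and 86.7 CPM without in the C1q-carrying cells. Ifitm1, an interferon-inducible membrane protein, Inhba, the activin A subunit, and Ltb4r1, a leukotriene B4 receptor, were the others, with Inhba at 95.96 CPM with suspension and 172 CPM without in the selected cells and at 38.2 CPM with suspension and 42.2 CPM without in the C1q-carrying cells. Genes of classical monocytes were thus among those that most set the selected cells apart from the C1q-carrying cells.

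The cells with 2 or more UMIs of dendritic genes numbered 97 with suspension and 116 without. Over them, 304 (2.6%) of 11688 genes were at least 2-fold higher in both libraries and 495 (4.24%) lower. Apoe was at 4658 CPM with suspension and 7064 CPM without in the selected cells and at 1004 CPM with suspension and 1576 CPM without in those with dendritic genes. Thbs1 (thrombospondin) was at 167 CPM with suspension and 233 CPM without in the selected cells and at 27.7 CPM with suspension and 45.4 CPM without in those with dendritic genes. Ccl7, the apolipoprotein Apoc2 and Maf, a transcription factor of macrophages, were the others. Class II low monocytes numbered 984 with suspension and 327 without. Over them, 92 (0.73%) of 12599 genes were higher and 333 (2.64%) lower. H2-DMb1 was at 759 CPM with suspension and 895 CPM without in the selected cells and at 68.3 CPM with suspension and 85.5 CPM without in these monocytes. Axl, a receptor for dying cells, was at 64.1 CPM with suspension and 57.8 CPM without in the selected cells and at 26.2 CPM with suspension and 9.19 CPM without in these monocytes. H2-DMa, the chemokine Cxcl16 and Fxyd2, a modulator of the sodium pump, were the others. The peptide editors H2-DMa and H2-DMb1, which the selection did not use, were thus higher along with the class II genes that it did.

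Ccl17 was also counted in other cells. It was at 2551 CPM with suspension and 107 CPM without in the cells with dendritic genes, at 259 CPM with suspension and 7.299 CPM without in the C1q-carrying cells and at 79.4 CPM with suspension and 0.2298 CPM without in class II low monocytes. The T cells, which should lack Ccl17, had 61.8 CPM with suspension and 7.303 CPM without. Those with under 1% of UMIs from S100a8 and S100a9 had 80.4 CPM with suspension and 0 CPM without. With suspension the level of class II low monocytes lay between these backgrounds, so it was not clearly above them. With suspension the selected cells, at 989 CPM, lay between the cells with dendritic genes and the C1q-carrying cells.

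Clusters of the selected cells are given by number, and their leading genes describe how they were made. Cluster 0 held 360 cells with suspension and 11 without and was led by Ccl17 (1225 CPM), Mfge8 (146 CPM) and Fxyd2 (286 CPM). Cluster 1 held 126 cells with suspension and 68 without, with Ccl17 (1001 CPM) beside the fibroblast genes Prg4 (2269 CPM) and Dcn (1079 CPM). Cluster 2 held 200 cells with suspension and 18 without and was led by Plac8 (1797 CPM), Ifitm1 (933 CPM) and Ifitm6 (188 CPM). Cluster 3 held 11 cells with suspension and 348 without and was led by Plac8 (2366 CPM), Cxcl9 (295 CPM) and Serpina3g (121 CPM). Isg15 was at 91.6 CPM in cluster 2 and 247 CPM in cluster 3. Cluster 4 held 10 cells with suspension and 41 without and was led by the neutrophil genes S100a9, Camp and Ngp. Cluster 5 held 7 cells with suspension and 210 without and was led by Fxyd2 (216 CPM), the osteoclast protease Ctsk (107 CPM) and Cd36 (75.8 CPM), a lipid scavenger receptor. Clusters that are mostly 1 library may be that library and not a kind of cell, and none was named.

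**Figure D5:**
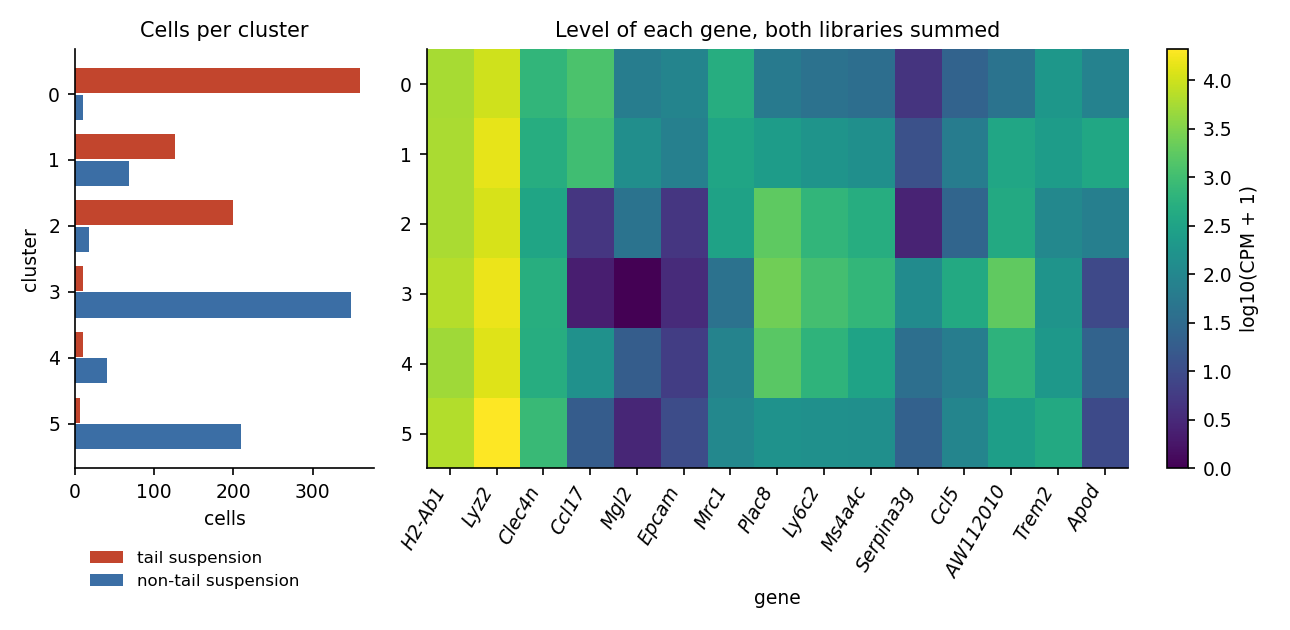
Left, selected cells per cluster in tail suspension (upper bars) and non-tail suspension (lower bars). Right, level of genes in each cluster with both libraries summed, on a log10(CPM + 1) scale. Cluster 0, with 360 and 11 cells, and cluster 3, with 11 and 348, are each almost of 1 library.

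The ratios differed with the level of the monocyte genes Ly6c2 and Plac8, in a split chosen after the data were seen. At least 0.05% of UMIs came from the pair in 219 selected cells with suspension and 403 without, and less in 495 with suspension and 293 without. The interferon list had a median of -0.77 in the cells with more of the pair and -1.72 in those with less. The class I list had -0.81 in the cells with more and -1.60 in those with less. Ccl17 had log2 ratios of 2.73 in the cells with more and 6.48 in those with less, and AW112010 had -1.72 and -4.00. Epcam had -0.61 in the cells with more and 3.85 in those with less. The difference between the groups of this split was not tested.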

How the data were processed

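UMI counts per gene and barcode, as deposited by the authors, were analysed for 1 single-cell RNA library per group. Cell Ranger 5.0.1 and GRCm38 are listed in the submitters' processing notes, and software version 3.1.0 is given per the file headers; which step each served is not given in the sources used here. Each barcode had at least 500 UMIs. Of 32285 gene IDs, 32158 matched GENCODE M21.

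UMIs were summed per library over the selected cells and over 6 other sets, and written as CPM. Shares were given Clopper-Pearson limits, CPM exact Poisson limits and ratios conditional binomial limits. A gene at 0 UMIs was set to 3 for its ratio. The cells with dendritic genes had no Lyz2 limit. Class II low monocytes had under 1% class II, at least 2 UMIs of Ly6c2 and Ccr2 together and under 3% S100a8 and S100a9. Clusters came from scanpy 1.11.5 (2000 variable genes, 20 components, 15 neighbours, Leiden resolution 0.5). The script was tested on simulated counts.

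Named genes had at least 100 UMIs in all, and 50 CPM and detection in 10% of cells in the higher library. Mitochondrial, ribosomal, haemoglobin, immunoglobulin and predicted genes, genes of the selection and non-myeloid markers were left out. The 12 largest ratios each way were taken, provided that neither median-of-ratios scaling nor thinning to 2000 UMIs reversed them. From each list, up to 4 examples were the 2 genes with most UMIs and the 2 with ratios farthest from 0; other list genes are named for their role, after their values were seen. The cells, lists and rules were chosen with earlier results of these data known. Doublets stayed in. Scrublet's own threshold called 492 cells with suspension and 0 without, so it had not worked; after this was seen, the top scores at the expected rate (1801 and 1001 cells, 41 and 66 of them selected) were left out as an alternative.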

Additional observations from a re-analysis of the deposited data

How the results depend on the processing

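No paired analysis was possible because each group is 1 library without replicate numbers, and for the same reason no library could be left out. The share of usable cells, 4.93% with suspension and 6.36% without, was 5.55% and 9.37% with at least 1000 genes, 6.39% and 7.32% at a class II limit of 0.5%, 3.19% and 4.70% at 2%, 2.69% and 3.005% with no C1q UMI, 3.57% and 5.71% at a Lyz2 limit of 0.5%, and 5.31% with suspension when doublets were left out. The share of class II high Lyz2 cells was 28.8% with suspension and 18.1% without when no C1q UMI was allowed, and 35.4% without suspension at the class II limit of 2%. Genes at least 2-fold higher numbered 666 of 7940 measured and 519 of 6329 with cells thinned to 2000 and 1000 UMIs, 492 of 8264 at a minimum of 100 UMIs (300 lower) and 610 of 9392 in cells with more Ly6c2 and Plac8, against 1268 of 11220. Within clusters, which rests on cluster 1 alone (126 and 68 cells), the medians were 0.20 for cytokines, 0.13 for chemokine and adhesion receptors, 0.0624 for arginine, itaconate and eicosanoid enzymes, 0.19 for immediate-early genes, -0.0154 for the cell cycle and 1.25 for glucocorticoid-responsive genes. The cell cycle median was also 1.53 with no C1q UMI, -0.16 at 1000 UMIs (4 genes) and 0.10 in cells with less Ly6c2 and Plac8. In those cells costimulation had 0.00345, and in cells with more the interferon list had -0.77 and Epcam -0.61. The cause of these shifts was not tested. Cluster 1 also carried the fibroblast genes Prg4 and Dcn and had the lowest median depth of the clusters. Another 293 list medians moved by less than 1.5-fold as ratios, which can be a large part of a log2 value. Among them the class I median was -0.81, and that of costimulation -0.34, in cells with more Ly6c2 and Plac8. Another 33 gene counts moved by less than 1.5 times, and 22 shares stayed within the interval of the share as reported. Of the ratios of named genes 340 stayed within their interval and 113 left it without a change of sign. Cd163 had no value without cells holding it, and Mgl2 none in cells with more Ly6c2 and Plac8. The splits by Ly6c2 and Plac8, by Cd163, Folr2 and Lyve1 and by 5000 UMIs were chosen after seeing the data. Depth limits the genes of a few CPM.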
